A study of Mus musculus with 4 samples.

Results

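The 10 genes described here, H2-K1, H2-D1, B2m, Tap1, Tap2, Tapbp, Psmb8, Psmb9, Psmb10 and Nlrc5, encode the parts by which a cell cuts its own proteins into peptides and shows them on MHC class I. They were chosen by symbol from the 32285 genes of the RNA count matrices, and all 10 were found in each of the 4 libraries. Their RNA was followed in 4 classes of cells called from RNA counts, named Cd4, Cd8, Foxp3 and C1q cells, in tumors of the sh-NC group and of the sh-B7-H3 (1) group. The tumors were grown under the skin of wild-type C57BL/6J mice from 105K cells, a Tsc2-deficient mouse kidney tumor line. The tumor cells of the sh-NC group carried a control hairpin and those of the sh-B7-H3 (1) group carried hairpin (1) against Cd276, the gene of B7-H3, so the knockdown was in the tumor cells and not in the T cells sequenced here. In each group 80 tumors were pooled, live CD3+ cells were sorted, stained with barcoded antibodies and captured by CITE-seq, which counts RNA and antibody tags in the same cells.

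The comparison between the groups asks whether the class I genes of the infiltrating cells differed when B7-H3 was lowered in the tumor. Each group has 2 libraries. The design text of the series describes them as duplicate lanes of 1 pool, the sample titles call them replicates, and the legends of the study call them independent samples pooled from the tumors of the group. The p-values measure the spread between these libraries, which may be technical, and how the tumors of each group were handled and the knockdown itself cannot be told apart. Cd276 had no UMI in the Cd4 and Foxp3 cells of any library and 1 UMI in all Cd8 cells and 1 in all C1q cells, so the knockdown itself could not be checked in these cells.

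MHC class I molecules carry a heavy chain, encoded in these mice by H2-K1 and H2-D1, and the light chain beta-2-microglobulin, encoded by B2m. Their peptides are cut in the cytosol by the proteasome, in which Psmb8, Psmb9 and Psmb10 encode the interferon-inducible catalytic subunits of the immunoproteasome. The TAP transporter, made of Tap1 and Tap2, moves the peptides into the endoplasmic reticulum, where tapasin, the product of Tapbp, holds the empty heavy chain at the transporter until a peptide binds. Nlrc5 encodes a transactivator that acts at class I promoters together with factors of the RFX, CREB and NF-Y families. T cells express class I themselves, and both interferons and T cell activation are known to raise it. C1q is made by tissue macrophages, which a sort for CD3 should remove.

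On GRCm38, 7 of the 10 genes lie on chromosome 17 between bases 33915899 and 35267499, in the mouse MHC. B2m lies on chromosome 2 (122147686 to 122153083, plus strand), and Psmb10 (105935735 to 105938444, minus strand) and Nlrc5 (94434356 to 94527272, plus strand) lie on chromosome 8. Promoter sequences from RefSeq (GRCm38.p6), covering 250 bases before the annotated start (225 for Tap1, as far as the start of Psmb9), were matched for 8 of the 10 genes and not for Tap2 and Nlrc5. The promoters of both heavy chains, of the light chain and the shared interval of Tap1 and Psmb9 are shown because these are the genes of the class I molecule itself and of its peptide supply. Capitals mark matches, on either strand, to GAANNGAAA or GAAANNGAAA (the letters of interferon response elements), GGGATTCCC (a kappa B type element), TGACG (the core of CREB sites) and ATTGG (the core of NF-Y sites).
H2-K1, chr17:34000348-34000597, minus strand: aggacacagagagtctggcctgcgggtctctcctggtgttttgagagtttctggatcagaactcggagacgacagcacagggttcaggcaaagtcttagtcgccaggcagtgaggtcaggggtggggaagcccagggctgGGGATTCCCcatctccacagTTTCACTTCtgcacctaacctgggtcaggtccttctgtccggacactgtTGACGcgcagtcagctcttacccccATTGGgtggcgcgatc
H2-D1, chr17:35262844-35263093, plus strand: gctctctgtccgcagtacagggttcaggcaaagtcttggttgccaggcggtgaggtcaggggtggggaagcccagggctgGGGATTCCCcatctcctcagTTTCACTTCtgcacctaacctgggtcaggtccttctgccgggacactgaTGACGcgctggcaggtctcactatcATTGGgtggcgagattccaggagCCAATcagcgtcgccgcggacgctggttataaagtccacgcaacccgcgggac
B2m, chr2:122147437-122147686, plus strand: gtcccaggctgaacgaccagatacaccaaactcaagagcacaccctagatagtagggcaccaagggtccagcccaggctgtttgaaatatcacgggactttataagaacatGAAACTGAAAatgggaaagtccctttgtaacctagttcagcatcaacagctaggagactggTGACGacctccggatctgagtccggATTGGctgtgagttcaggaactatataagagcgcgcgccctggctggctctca
Tap1, chr17:34187331-34187555, plus strand: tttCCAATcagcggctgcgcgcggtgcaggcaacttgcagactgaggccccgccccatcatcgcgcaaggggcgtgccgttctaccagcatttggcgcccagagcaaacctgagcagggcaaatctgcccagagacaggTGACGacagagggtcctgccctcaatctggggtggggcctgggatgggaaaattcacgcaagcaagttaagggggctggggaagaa

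The promoters of H2-K1 and H2-D1 agreed at 166 of 190 aligned bases (87.4%) and held the same order of matches. In H2-K1 the GGGATTCCC match lay 110 to 102 bases before the start, the GAANNGAAA match 90 to 82 bases, TGACG 41 to 37 bases and ATTGG 16 to 12 bases before it. In H2-D1 the same matches lay 60 bases further upstream, with an additional ATTGG on the minus strand 53 to 49 bases before the start. B2m had GAAANNGAAA at 139 to 130 bases, TGACG at 78 to 74 bases and ATTGG at 53 to 49 bases before its start, and no GGGATTCCC. Tap1 and Psmb9 are transcribed away from each other from starts with 225 bases between them, which held 1 TGACG and 1 ATTGG and neither interferon-type spacing.

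Of the 8 promoters, 3 held an interferon-type match, 5 held TGACG, 6 held ATTGG and 2 held GGGATTCCC. The TGACG and ATTGG of Tap1 and of Psmb9 are the same sites in their shared interval, counted here for both genes. Among all 27025 promoters, each taken as 250 bases before the start, the shares were 8.91% for either interferon-type spacing (6.34% for GAANNGAAA and 3.04% for GAAANNGAAA), 17.9% for TGACG, 34.5% for ATTGG and 0.311% for GGGATTCCC. Either interferon-type spacing, TGACG and ATTGG stood together in 0.470% of all promoters and in those of H2-K1, H2-D1 and B2m. A match is a description of the letters and not evidence of a bound site.

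The libraries held 12112 and 10589 called cells in the sh-NC group and 7030 and 9129 in the sh-B7-H3 (1) group, with 79224898 to 132820909 RNA UMIs each. After limits on detected genes and mitochondrial UMIs and removal of 13.4% to 17.1% of cells as likely doublets, 3030 to 6257 cells per library remained. The Cd4 class held 844 to 1780 cells per library, the Cd8 class 1113 to 2603, the Foxp3 class 225 to 359 and the C1q class 26, 31, 103 and 81. The libraries shared 17 to 35 cell barcodes in pairs. Counts of the libraries of a group differed by more than the counting noise of independent UMIs in every class (chi-square per degree of freedom 1.35 to 2.57). UMIs come grouped by cell, so this does not tell duplicate lanes of 1 pool from independent samples. Median depth was 6842 to 8078 UMIs per Cd4 cell and 1862 to 3227 per C1q cell. UMIs were summed per class and library, since cells are not replicates, and fitted with edgeR's quasi-likelihood test. Levels are CPM, a gene's share of the UMIs of its sum, scaled by TMM, which balances libraries on the genes that differ least, and log2 fold changes are given ± their standard error. With such sums, fewer molecules per cell and fewer cells with the gene cannot be told apart.

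The summed level of 7 T cell markers was 5934 to 8752 CPM in the Cd4, Cd8 and Foxp3 classes and 210 to 489 CPM in the C1q class. Macrophage markers (8 genes) summed to 36753 to 46595 CPM in the C1q class and to 9.16 to 79.1 CPM in the others. The C1q cells thus carried the markers of macrophages in a sort for CD3. Markers of regulatory T cells (5 genes) summed to 2493 to 3014 CPM in the Foxp3 class and to 20.1 to 395 CPM in the others. Cd3d, Cd3e and Cd3g are among the T cell markers, and the calling rule limits them in the C1q class. Foxp3 is among the regulatory markers, and the rule requires it in Foxp3 cells and excludes it from Cd4 and Cd8 cells. These parts of the comparison were therefore fixed in advance.

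The classes stood in a different order from gene to gene. In the sh-NC libraries H2-K1 and Tap1 fell in the order Foxp3, Cd8, Cd4 and C1q cells with no overlap of neighbours. Tap1 rested on only 3 and 7 UMIs in the C1q sums of these libraries. Tap2 fell in the order Foxp3, Cd8 and Cd4 cells without overlap, and its level in C1q cells is not read. Psmb8 was highest in Cd8 cells, followed by Foxp3, Cd4 and C1q cells, again with no overlap. For Tapbp and Psmb10 the C1q libraries overlapped their neighbours. These orders are on the TMM scale of all 16 sums. Before TMM scaling H2-K1 stood at 2014 and 2033 CPM in sh-NC Cd4 cells and at 2008 and 2072 CPM in sh-NC Cd8 cells, which overlapped. Tap2 then stood at 91.6 and 88.5 CPM against 91.6 and 90.3 CPM. Psmb8 then stood at 855 and 834 CPM in sh-NC Foxp3 cells, above the 760 and 765 CPM of Cd8 cells. These orders thus depended on the scaling. In Cd8 cells all 10 were higher than in Cd4 cells, where 17.4% of 11296 genes were, with log2 fold changes from 0.15 to 0.53. Psmb10, the inducible counterpart of the trypsin-like subunit, had the largest of these differences. On the common scale of all 16 sums it stood at 194, 185, 198.1 and 197 CPM in Cd4 cells and at 285, 281, 279 and 271 CPM in Cd8 cells of the sh-NC libraries 1 and 2 and the sh-B7-H3 (1) libraries 1 and 2. The classes did not overlap, and the difference was 0.53 ± 0.03 (adjusted p = 6.6e-70). Psmb8 followed, at 680, 678, 823 and 820 CPM in Cd4 cells and 908, 898, 1077 and 1036 CPM in Cd8 cells (0.39 ± 0.02, adjusted p = 4.6e-67). Psmb9 (0.37 ± 0.03), Nlrc5 (0.36 ± 0.06), Tap1 (0.34 ± 0.04), Tapbp (0.31 ± 0.04) and B2m (0.24 ± 0.04) came next. The heavy chains and Tap2 differed least, H2-K1 by 0.16 ± 0.04, H2-D1 by 0.15 ± 0.04 and Tap2 by 0.15 ± 0.04. With DESeq2 6 of the 10 genes were called, without H2-K1, H2-D1, B2m and Tap2. Without TMM factors the median of all genes moved by -0.153, the share of called genes that were higher fell from 53.7% to 17.7%, and the direction of H2-D1 and Tap2 turned.

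Foxp3 cells had 7 of the 10 genes above Cd4 cells, beside 18.4% of all genes tested. The transporter and the heavy chains led. Tap1 stood at 124, 122, 159 and 143 CPM in Foxp3 cells against 81.4, 80.9, 82.9 and 91.6 CPM in Cd4 cells, a difference of 0.69 ± 0.06 (adjusted p = 2.0e-29). H2-D1 stood at 2442, 2431, 2838 and 2809 CPM against 1735, 1736, 2103 and 2109 CPM (0.46 ± 0.04), and H2-K1 differed by 0.39 ± 0.04. Within each group of tumors the Foxp3 libraries lay above the Cd4 libraries for all 3 genes. Tap2 (0.43 ± 0.06), B2m (0.27 ± 0.04), Psmb9 (0.17 ± 0.04) and Psmb8 (0.14 ± 0.03) were the other calls. Tapbp, Psmb10 and Nlrc5 did not pass the test (0.13 ± 0.06, -0.09 ± 0.05 and -0.23 ± 0.10). When TMM factors were left out, the median of all genes moved by 0.194 and the share of called genes that were higher rose from 52.3% to 79.0%.

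The C1q cells had another profile. B2m (0.56 ± 0.05), Psmb10 (0.54 ± 0.14) and H2-D1 (0.22 ± 0.06) were higher than in Cd4 cells, while H2-K1 (-0.60 ± 0.07) was lower. Tapbp (0.32 ± 0.19), Psmb9 (0.14 ± 0.13), Psmb8 (0.05 ± 0.08) and Tap1 (-0.48 ± 0.26) did not pass. Tap2, with 5, 5, 14 and 8 UMIs in the C1q sums, and Nlrc5, with 1, 1, 6 and 14, entered this fit only through the T cell sums where they are high, so no result is read from their estimates. Of all genes 13.1% were higher and 26.7% lower, with a median of -0.99 over all genes and -0.06 over the 1117 genes at 100 CPM or more. H2-K1 stood at 1341, 935, 2341 and 2301 CPM in C1q cells and at 2154, 2168, 2788 and 2736 CPM in Cd4 cells of the same libraries. B2m stood at 3615, 2525, 5060.2 and 4711 CPM in C1q cells and at 2269, 2261, 3023 and 3008 CPM in Cd4 cells. In each library H2-K1 was the lower and B2m the higher in C1q cells. H2-D1 stood at 2093, 1366, 3145 and 2660 CPM in C1q cells, so that the classes overlapped in the sh-NC libraries and C1q cells were the higher only in the sh-B7-H3 (1) libraries and sh-NC library 1. Psmb10 stood at 299, 168, 387 and 297 CPM in C1q cells and was below Cd4 cells in sh-NC library 2. Before TMM scaling H2-D1 stood at 2430, 1714, 2833 and 2501 CPM in C1q cells and at 1622, 1628, 2152 and 2111 CPM in Cd4 cells. Psmb10 in sh-NC library 2 then stood at 211 CPM in C1q cells and 174 CPM in Cd4 cells. The order of the classes in that library thus depended on the scaling for both genes. With C1q cells called without a limit on Cd3 UMIs the H2-K1 difference was -0.02 and no longer passed, and with each cell thinned to 1000 UMIs that of H2-D1 was -0.11. Without sh-NC library 1, H2-D1 (0.05) and Psmb10 (0.32) were no longer called.

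**Figure D1:**
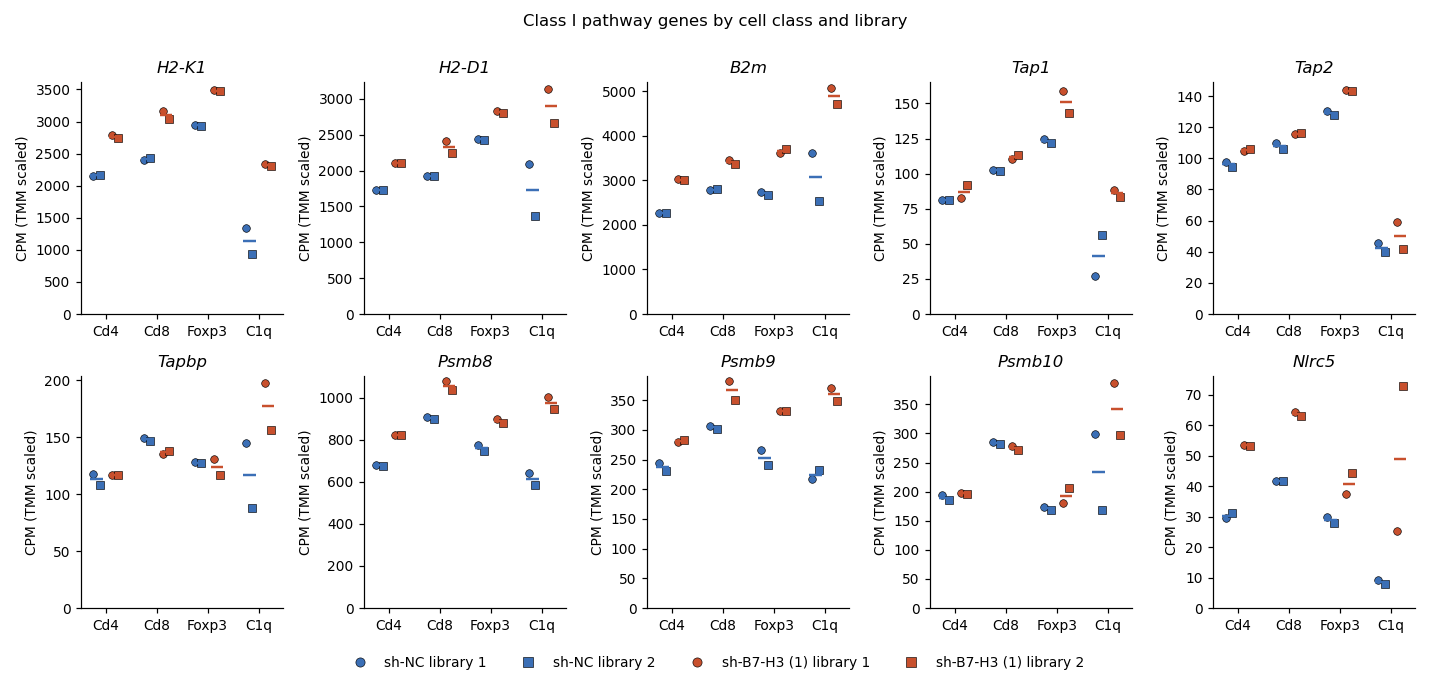
Level of each of the 10 genes (CPM, TMM scaled over all 16 sums, axis from 0) in Cd4, Cd8, Foxp3 and C1q cells. Each point is 1 library (blue sh-NC, red sh-B7-H3 (1), circles library 1, squares library 2) and short bars are group means; Tap1 is highest in Foxp3 cells, at 122 to 159 CPM, and H2-K1 is lowest in C1q cells of the sh-NC libraries, at 935 and 1341 CPM.

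In Cd4 cells 7 of the 10 genes were higher in the sh-B7-H3 (1) libraries, none was lower and 3 did not pass the test. Of the 11216 genes tested 22.3% were higher and 21.7% lower, so the 7 of 10 stood against a background of that size. The median log2 fold change of the 10 genes was 0.26, against 0.00034 over all genes. When a log2 fold change of at least 1 was also required, none of the 10 was called, against 11.3% of all genes. H2-K1 stood at 2095 and 2108 CPM in the sh-NC libraries and at 2719 and 2665 CPM in the sh-B7-H3 (1) libraries, and differed by 0.36 ± 0.03 (adjusted p = 1.3e-10). H2-D1 stood at 1687 and 1688 CPM against 2051 and 2054 CPM (0.28 ± 0.03, adjusted p = 1.4e-08). B2m stood at 2207 and 2198 CPM against 2948 and 2929 CPM (0.42 ± 0.03, adjusted p = 3.7e-12). For all 3 parts of the class I molecule both knockdown libraries lay above both controls. How many of all genes tested were separated in this way was not counted.

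Nlrc5, the class I transactivator, had the largest difference among the 10 genes in Cd4 cells. It stood at 28.7 and 30.3 CPM in the sh-NC libraries and at 52.3 and 51.8 CPM in the sh-B7-H3 (1) libraries (0.82 ± 0.08, adjusted p = 1.0e-09). The immunoproteasome genes Psmb8 (661 and 659 against 803 and 799 CPM, 0.28 ± 0.03) and Psmb9 (237 and 225 against 272 and 275 CPM, 0.24 ± 0.04) also rose, without overlap of the groups. Psmb10 did not pass (189 and 180 against 193 and 192 CPM, 0.06 ± 0.04). The peptide transporter and tapasin moved less. Tap2 was at 95.2 and 91.8 against 102 and 104 CPM (0.13 ± 0.05, adjusted p = 0.039), Tap1 at 79.2 and 78.7 against 80.8 and 89.2 CPM (0.11 ± 0.06, adjusted p = 0.12), and Tapbp at 115 and 105 against 114 and 113 CPM, where the groups overlapped. The call of Tap2 was lost without any 1 of the 4 libraries (log2 0.10 to 0.16) and with DESeq2. Without TMM factors the median of all genes moved by 0.107 and the share of called genes that were higher rose from 50.6% to 66.6%.

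In Cd8 cells 8 of the 10 genes were higher in the sh-B7-H3 (1) libraries and 1 was lower, beside 43.7% of 11514 genes called in either direction. None of the 10 passed with a log2 fold change of at least 1 also required, against 9.51% of all genes. The heavy chains rose as in Cd4 cells: H2-K1 stood at 2092 and 2124 CPM against 2777 and 2662 CPM (0.37 ± 0.04, adjusted p = 1.4e-09), and H2-D1 at 1676 and 1677 CPM against 2124 and 1968 CPM (0.29 ± 0.04). B2m stood at 2419 and 2442 CPM against 3027 and 2945 CPM (0.30 ± 0.04). No control library reached a knockdown library for these 3 genes, an order that was not counted over all genes. Nlrc5 again differed most, at 36.3 and 36.4 CPM against 56.5 and 55.5 CPM (0.62 ± 0.06, adjusted p = 7.2e-10).

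Of the immunoproteasome genes in Cd8 cells, Psmb8 (792 and 784 against 946 and 909 CPM, 0.23 ± 0.04) and Psmb9 (266 and 264 against 336 and 308 CPM, 0.28 ± 0.04) rose, and Psmb10 did not pass (248 and 246 against 245 and 238 CPM, -0.03 ± 0.04). Tap1 rose by 0.14 ± 0.05, from 89.5 and 89.0 to 97.2 and 99.6 CPM (adjusted p = 0.012), and Tap2 by 0.11 ± 0.05 (adjusted p = 0.044). Tapbp was the 1 gene that fell, from 130.1 and 128 to 119 and 121 CPM (-0.11 ± 0.04, adjusted p = 0.048). The calls of Tap2 and Tapbp were lost without any 1 of the 4 libraries and with DESeq2, and that of Tap1 without sh-NC library 1 or 2, without sh-B7-H3 (1) library 2 and with DESeq2. When TMM factors were left out, the share of called genes that were higher rose from 50.3% to 66.7%. Tapbp then stood at 124.9 and 124.8 CPM in the sh-NC libraries and 123.3 and 124.4 CPM in the sh-B7-H3 (1) libraries, so its fall depended on the scaling. None of the 10 genes differed between Cd8 and Cd4 cells in its group difference, in a test that called 4.36% of all genes. The estimates ran from -0.20 ± 0.12 for Nlrc5 to 0.02 ± 0.05 for Psmb9. Without TMM factors 1 of the 10 was called in this test.

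In Foxp3 cells 5 of the 10 genes were higher and none lower, beside 3.52% of 8779 genes higher. B2m stood at 3077 and 2980 CPM against 3985 and 4110.0 CPM (0.42 ± 0.06, adjusted p = 8.7e-07). Psmb9 stood at 300.5 and 267 CPM against 368 and 368 CPM (0.37 ± 0.08, adjusted p = 7.8e-04), and H2-K1 at 3322 and 3260 CPM against 3855 and 3859 CPM (0.23 ± 0.06, adjusted p = 0.0089). H2-D1 (0.20 ± 0.06, adjusted p = 0.032) and Psmb8 (0.21 ± 0.06, adjusted p = 0.036) were the others. In all 5 both knockdown libraries lay above both controls, which describes genes already called and was not counted over all genes. Of the 10 genes 0 were called without the low-count filter, where 7 of 15299 genes were higher and 1 lower. With stricter class calls 1 was called, beside 93 higher and 87 lower of 7192 genes. At 1000 UMIs per cell 1 was called, beside 42 higher and 34 lower of 3829 genes. Nlrc5 was at 33.6 and 31.1 CPM against 41.3 and 49.2 CPM and did not pass (0.48 ± 0.19, adjusted p = 0.12), nor did Tap1 (0.27 ± 0.10, adjusted p = 0.088), Psmb10 (0.15 ± 0.09), Tap2 (0.13 ± 0.10) and Tapbp (-0.06 ± 0.10). Macrophage markers stood at 15.8 and 23.7 against 79.1 and 52.8 CPM and NK cell markers at 3.65 and 3.74 against 13.8 and 10.8 CPM in the same sums, with Ncr1 at 0, and their part in these differences was not tested. Some of the 5 calls were lost when any 1 of the 4 libraries was left out, and all of them without sh-B7-H3 (1) library 1. These fits left 1 library in a group and called fewer of all genes than the fit of all 4 libraries. No gene of the 10 differed between Foxp3 and Cd4 cells in its group difference, where 6.67% of all genes did. The estimates ran from -0.31 ± 0.21 for Nlrc5 to 0.18 ± 0.12 for Tap1. Without TMM factors the median of that test moved by -0.101 and the share of its calls that were higher fell from 45.1% to 26.4%. In that setting 2 of the 10 genes were called.

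The C1q cells were few, with 95047 to 263674 UMIs per library, and none of the 8 genes that could be tested passed, beside 0.361% of 1660 genes. By edgeR, 4 of the 8 had an unadjusted p under 0.05, as did 11.5% of all genes: H2-K1 (0.77 ± 0.17, adjusted p = 0.23), H2-D1 (0.49 ± 0.19), B2m (0.41 ± 0.16) and Psmb8 (0.41 ± 0.15). Tap1 (0.74 ± 0.46), Psmb9 (0.41 ± 0.22), Tapbp (0.36 ± 0.33) and Psmb10 (0.31 ± 0.30) were the others tested. H2-K1 stood at 1527 and 1095 CPM in the sh-NC libraries and at 2209 and 2256 CPM in the sh-B7-H3 (1) libraries. B2m stood at 4117 and 2957 CPM against 4775 and 4619 CPM. For both genes the knockdown libraries were higher without overlap, and the control libraries differed from each other by more than the knockdown libraries did. Nlrc5 and Tap2 had too few UMIs to test. Among called genes 83.3% were higher, and 71.4% without TMM factors, which moved the median of all genes by -0.129. With no upper limit on detected genes 4 of the 10 genes were called, and without sh-NC library 1, 3 were.

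Set against Cd4 cells in 1 fit over all classes, the group difference in C1q cells was larger for H2-K1 by 0.69 ± 0.13 (adjusted p = 2.2e-05) and for H2-D1 by 0.49 ± 0.12 (adjusted p = 0.0026), beside 2.80% of all genes called. Of the other genes tested in C1q cells none passed, with estimates from 0.27 ± 0.10 for B2m to 0.91 ± 0.53 for Tap1. The median of that difference over all genes was 0.42, and 70.9% of its calls were higher. T cell markers in the C1q sums stood at 210 and 331 against 432 and 489 CPM, and 7.69% and 0% against 26.2% and 24.7% of C1q cells had 1 or 2 UMIs of Nkg7, a gene of cytotoxic lymphocytes; their part in this difference was not tested. Without TMM factors that median moved by -0.451 and 21.6% of calls were higher, and neither gene was called. Neither was called without sh-NC library 2 (0.40 for H2-K1 and 0.16 for H2-D1) or with no limit on Cd3 UMIs in the C1q cells, and H2-D1 was not called without sh-B7-H3 (1) library 1 (0.35).

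**Figure D2:**
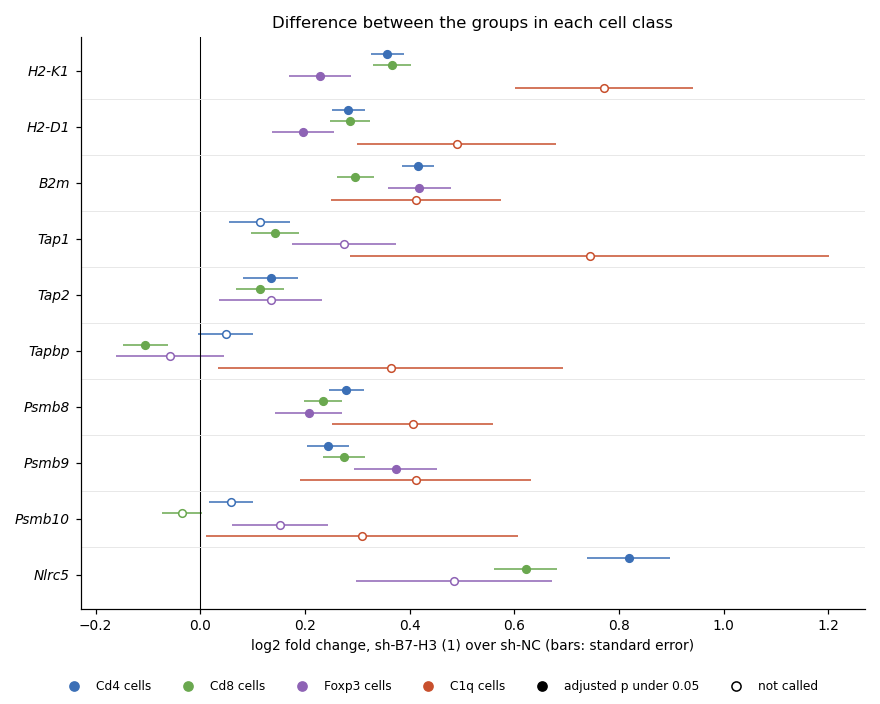
Log2 fold change of each gene, sh-B7-H3 (1) over sh-NC, in each cell class (points, with standard errors as bars; filled points passed at an adjusted p of 0.05). Nlrc5 is farthest right in Cd4 cells at 0.82, and Tapbp lies on both sides of 0 in the T cell classes, from -0.11 to 0.05.

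Other genes of the pathway moved in both directions. Of 15 further class I and class Ib heavy chain genes, 11 could be tested in Cd4 cells, where 6 were higher and 1 lower with a median of 0.42 (22.3% of all genes were higher and 21.7% lower). In Cd8 cells, where 43.7% of all genes were called in either direction, 7 of 11 were higher and 1 lower with a median of 0.44. At 1000 UMIs per cell 5 of the 7 heavy chain calls were kept in Cd4 cells and 5 of the 8 in Cd8 cells. H2-Q7, a Qa-2 heavy chain gene, stood at 488 and 481 CPM against 844 and 850.5 CPM in Cd4 cells (0.81 ± 0.03) and rose by 0.59 ± 0.04 in Cd8 cells. H2-Q6 rose by 1.26 ± 0.06 and 0.64 ± 0.04, and H2-T23, which encodes Qa-1, by 0.42 ± 0.04 and 0.50 ± 0.04 in Cd4 and Cd8 cells. H2-M3 (0.54 ± 0.07 and 0.44 ± 0.06), H2-Q10 (0.78 ± 0.13 and 0.77 ± 0.09) and H2-Q4 (0.35 ± 0.05 and 0.23 ± 0.04) rose as well. The lower gene was H2-T24 (-1.17 ± 0.22 and -0.47 ± 0.18), and H2-Q2 was the additional higher gene in Cd8 cells (2.45 ± 0.64); neither reached the level of 20 CPM set for naming, and both were named after their values were seen. In Foxp3 cells 3 of 10 tested were higher, H2-Q6, H2-Q7 and H2-T23, with a median of 0.33, beside 3.52% of all genes. None of these 3 calls was kept without sh-B7-H3 (1) library 1 or without the low-count filter, and 1 was kept at 1000 UMIs per cell. Within Cd4 cells 1 of 10 tested was called in the Nkg7-negative stratum and 0 of 9 in the Nkg7-positive stratum (edgeR), beside 4.39% and 5.87% of all genes, with medians of 0.05 and 0.07. In C1q cells, where 0.361% of all genes were called, none of 5 tested was, with a median of 0.59. Heavy chain genes are near copies of each other, so counts may be split among them: 10.2% of the 50-base windows near the end of H2-K1 transcripts and 10.1% of those of H2-D1 also occurred in other genes (15 of 24 and 2 of 81 of them H2 genes), against none for B2m, Tap2, Nlrc5 and the 3 immunoproteasome genes.

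The genes around the immunoproteasome split. Psme1 and Psme2 encode the activator cap of the proteasome. Psme1 fell from 524 and 524 to 416 and 412 CPM in Cd4 cells (-0.34 ± 0.04, adjusted p = 3.5e-09) and by 0.40 on the log2 scale in Cd8 cells. Psme2 fell from 336 and 328 to 249 and 255 CPM in Cd4 cells (-0.40 ± 0.04, adjusted p = 9.2e-10) and by 0.50 in Cd8 cells. Of the 7 further proteasome genes 3 were higher and 2 lower in Cd4 cells (median -0.06), 2 higher and 3 lower in Cd8 cells (median -0.12), and 1, Psme1, lower in Foxp3 cells (median -0.05), beside the 22.3% higher and 21.7% lower in Cd4, the 43.7% called in Cd8 and 3.44% lower in Foxp3 cells among all genes. The higher genes were constitutive catalytic subunits, Psmb5 (0.19 ± 0.04, Cd4 cells), Psmb6 (0.14 ± 0.05 and 0.10 ± 0.04) and Psmb7 (0.16 ± 0.06 and 0.20 ± 0.05), and the assembly factor Pomp fell in Cd8 cells (-0.12 ± 0.04). Of the 6 loading and trimming genes 2 were higher and 1 lower in Cd4 cells (median -0.04), 1 higher and 4 lower in Cd8 cells (median -0.14), and 1 lower in Foxp3 cells, Hspa5, a chaperone gene (median -0.15). They were small changes: the chaperone Calr rose by 0.13 ± 0.04 and 0.14 ± 0.04, Pdia3 fell in Cd4 cells (-0.17 ± 0.04), Canx (-0.15 ± 0.05), Hspa5 (-0.12 ± 0.04) and the trimming peptidase Erap1 (-0.21 ± 0.07) fell in Cd8 cells, and Tapbpl, a relative of tapasin, rose in Cd4 cells (0.26 ± 0.08) and fell in Cd8 cells (-0.18 ± 0.05). With DESeq2 none of the loading calls was kept in Cd4, Cd8 or Foxp3 cells, and 2 of 5 proteasome calls were kept in Cd4 cells, 2 of 5 in Cd8 cells and 0 of 1 in Foxp3 cells. Without sh-B7-H3 (1) library 2, 1 of the 3 loading calls was kept in Cd4 cells and 1 of the 5 in Cd8 cells, where 3 were kept without sh-NC library 2. Without TMM factors 2 of the 3 loading calls were kept in Cd4 and 1 of the 5 in Cd8 cells, and at 1000 UMIs per cell 0 and 1. The proteasome calls kept at 1000 UMIs per cell were 2 of 5 in Cd4 cells and 2 of 5 in Cd8 cells. Of the 5 proteasome calls 3 were kept in Cd4 cells without sh-NC library 2 or without sh-B7-H3 (1) library 1, and 3 in Cd8 cells without sh-NC library 1. In Foxp3 cells the call of Hspa5 was lost without sh-NC library 2 and without either sh-B7-H3 (1) library, and that of Psme1 without sh-NC library 1, without either sh-B7-H3 (1) library and without TMM factors; both were lost without the low-count filter and at 1000 UMIs per cell. In C1q cells none of the 4 loading, 6 proteasome and 3 regulator genes tested was called, beside 0.361% of all genes (medians 0.03, 0.01 and 0.07).

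Regulators were called about as often as all genes. Irf1, an interferon-induced activator of class I genes, fell from 106 and 100.02 to 82.6 and 84.5 CPM in Cd4 cells (log2 fold change -0.30 ± 0.06) and by 0.44 on the log2 scale in Cd8 cells. Irf8 rose from 11.9 and 17.7 to 57.8 and 57.3 CPM in Cd4 cells (1.97 ± 0.11) and by 1.49 ± 0.11 in Cd8 cells, and Irf2 by 0.36 ± 0.05 and 0.23 ± 0.04. In these sums the class I genes Nlrc5, H2-K1 and B2m were higher, and the part of Irf1, Irf2 and Irf8 in this was not tested. Of 12 regulators 3 were higher and 3 lower in Cd4 cells (median -0.04; 22.3% and 21.7% of all genes) and likewise in Cd8 cells (median 0.01; 43.7% of all genes in either direction), and none of 11 was called in Foxp3 cells (median 0.06; 3.52% of all genes higher and 3.44% lower). At 1000 UMIs per cell 2 of the 6 regulator calls were kept in Cd4 and 3 of the 6 in Cd8 cells. Other calls were the NF-Y genes Nfya (-0.38 ± 0.12, Cd4 cells) and Nfyc (-0.36 ± 0.10, Cd8 cells, with the opposite sign at 1000 UMIs per cell) and the class II transactivator Ciita, under 20 CPM and named after its values were seen (1.75 ± 0.41 and 2.53 ± 0.54).

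**Figure D3:**
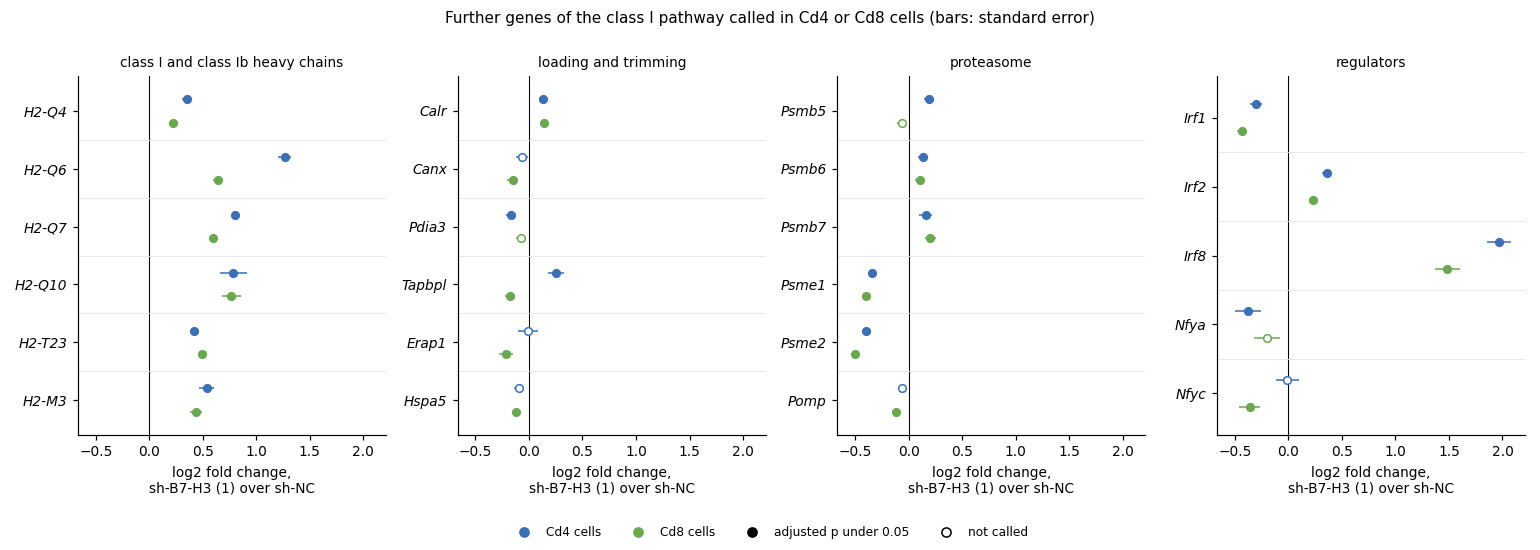
Log2 fold change, sh-B7-H3 (1) over sh-NC, of further class I pathway genes in Cd4 and Cd8 cells, grouped as heavy chains, loading and trimming, proteasome and regulators (bars: standard error; filled points passed). The 6 heavy chain genes shown, those of the list called at 20 CPM or more, lie to the right of 0, while Psme1, Psme2 and Irf1 lie to the left in both classes.

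UMIs of each inducible subunit were also set against its constitutive counterpart; counting from the 3 prime end gives 1 UMI per captured transcript of any length. Psmb8 per Psmb5 was 4.70 and 4.82 in sh-NC Cd4 cells and 5.10 and 5.04 in sh-B7-H3 (1) Cd4 cells, and 5.08 and 5.31 against 6.67 and 6.15 in Cd8 cells. In Foxp3 cells it was 4.54 and 4.56 against 5.22 and 5.68. Psmb9 per Psmb6 was 1.74 and 1.64 against 1.79 and 1.85 in Cd4 cells, 2.03 and 2.10 against 2.39 and 2.25 in Cd8 cells, and 1.93 and 1.79 against 2.61 and 2.34 in Foxp3 cells. Psmb10 per Psmb7 went the other way in Cd4 and Cd8 cells, at 2.70 and 2.68 against 2.54 and 2.48 in Cd4 cells and 4.01 and 4.06 against 3.38 and 3.45 in Cd8 cells. The groups did not overlap in any of these, and an exact permutation test of 2 libraries against 2 cannot give a two-sided p below 0.33. In C1q cells the groups overlapped for Psmb8 per Psmb5 and for Psmb9 per Psmb6, and in Foxp3 cells for Psmb10 per Psmb7. Psmb10 per Psmb7 was higher in the knockdown libraries of C1q cells, at 2.20 and 1.5 against 3.07 and 2.28, from 14 to 30 Psmb7 UMIs per library.

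The classes did not hold the same kinds of cells in both groups. Nkg7 encodes a protein of cytotoxic granules, and cells with at least 3 Nkg7 UMIs made up 9.10% and 9.97% of Cd4 cells in the sh-NC libraries and 52.6% and 51.2% in the sh-B7-H3 (1) libraries. In Cd8 cells they were 78.1% and 82.0% against 91.6% and 90.4%, in Foxp3 cells 4.18% and 4.49% against 11.5% and 13.3%, and in C1q cells, which should lack the gene, 0 of 26 to 103 (exact 95% upper limits 3.52% to 13.2%, which hold for 3 or more UMIs in these shallower cells and not for cells with 1 or 2). With each cell thinned to 1000 UMIs, the share of Cd4 cells with any Nkg7 UMI was 9.35% and 11.2% against 54.0% and 53.8%. That of Cd8 cells was 48.5% and 49.9% against 79.9% and 75.8%, and that of C1q cells was 4.76% and 0% against 12.8% and 10.3%. Nkg7 in free RNA, outside cells, stood at 638 and 656 CPM in the sh-NC libraries and 1391 and 1401 CPM in the sh-B7-H3 (1) libraries, so the background of this marker moved with the group; its part in the shares was not tested. The 10 genes were therefore also compared between Nkg7-positive cells (3 or more UMIs) and Nkg7-negative cells (none), and between the groups within each.

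Nkg7-positive Cd4 cells had 9 of the 10 genes above Nkg7-negative Cd4 cells, beside 29.4% of 9851 genes higher. Nlrc5 (0.96 ± 0.12), H2-K1 (0.72 ± 0.03), H2-D1 (0.70 ± 0.03), B2m (0.67 ± 0.03) and Tap1 (0.65 ± 0.08) differed most, followed by Psmb9 (0.58 ± 0.05), Tap2 (0.55 ± 0.07), Psmb8 (0.50 ± 0.03) and Psmb10 (0.14 ± 0.05); Tapbp did not pass (0.10 ± 0.07). H2-K1 stood at 3325, 3604, 3372 and 3329 CPM in the Nkg7-positive cells of the 4 libraries and at 2063, 2031, 2073 and 2098 CPM in the Nkg7-negative cells. The strata did not overlap in any of the 4 libraries. Without TMM factors the median of all genes moved by 0.385 and the share of called genes that were higher rose from 50.6% to 77.7%. In Cd8 cells 7 of the 10 genes were higher in the Nkg7-positive stratum, beside 4.41% of 10151 genes: Tap1 (0.66 ± 0.19), Tap2 (0.58 ± 0.17), H2-D1 (0.47 ± 0.07), H2-K1 (0.44 ± 0.07), Psmb9 (0.41 ± 0.11), Psmb8 (0.33 ± 0.08) and B2m (0.29 ± 0.07). Nlrc5 (0.15 ± 0.22), Psmb10 (-0.05 ± 0.10) and Tapbp (-0.21 ± 0.13) did not pass. All of the Cd8 calls were lost without sh-NC library 2, most without sh-NC library 1 and some without sh-B7-H3 (1) library 1. Each of these fits left 1 library in a group and called fewer of all genes than the fit of all 4 libraries.

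**Figure D4:**
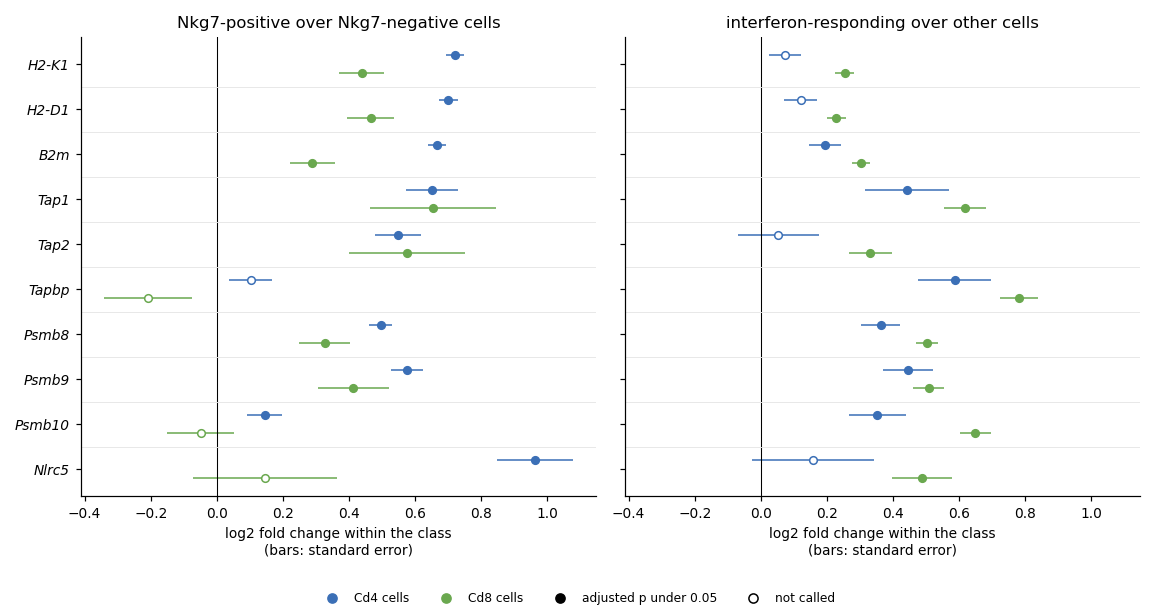
Log2 fold change of each gene between Nkg7-positive and Nkg7-negative cells, and between interferon-responding and other cells, within Cd4 and Cd8 cells (bars: standard error; filled points passed). In Cd4 cells Nlrc5 and H2-K1 stand at 0.96 and 0.72 by Nkg7, and Tapbp is highest by interferon response, at 0.59 in Cd4 and 0.78 in Cd8 cells.

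Within Nkg7-negative Cd4 cells (1497, 1225, 268 and 330 cells) none of the 10 genes differed between the groups by edgeR, beside 4.39% of 10014 genes called, and none had an unadjusted p under 0.05. H2-K1 stood at 1789.6 and 1766 CPM in the sh-NC libraries and 1838 and 1838 CPM in the sh-B7-H3 (1) libraries (0.05 ± 0.03), B2m at 1906 and 1887 against 2008 and 1936 CPM (0.06 ± 0.03), and Nlrc5 at 24.9 and 24.8 against 30.6 and 25.6 CPM (0.16 ± 0.16). On the TMM scale the knockdown libraries were the higher for these 3 genes, and none of the 3 passed the test. The estimates of the other 7 ran from -0.19 ± 0.11 for Tap1 to 0.09 ± 0.08 for Tapbp. When TMM factors were left out, the median of all genes moved by -0.091. That shift was larger than the differences of H2-K1 and B2m, so the order of the groups for them depended on the scaling. The share of called genes that were higher fell from 55.9% to 21.9%, and H2-D1 (-0.10) and Psmb9 (-0.20) were called lower.

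Within Nkg7-positive Cd4 cells (162, 147, 444 and 558 cells) 1 of the 10 genes was called, beside 5.87% of 9022 genes. This was Nlrc5, at 49.5 and 64.3 CPM against 81.3 and 78.2 CPM (0.49 ± 0.14, adjusted p = 0.026), and its call was lost without sh-NC library 1 (0.31) and without sh-B7-H3 (1) library 1 (0.47) or 2 (0.53). H2-K1 stood at 3793 and 4121 CPM against 3858 and 3809 CPM, so that the groups overlapped (-0.05 ± 0.05), and H2-D1 at 3061 and 3247 against 2888 and 2933 CPM (-0.12 ± 0.05, adjusted p = 0.25). B2m stood at 3776 and 3886 against 4190.3 and 4217 CPM (0.13 ± 0.05, adjusted p = 0.14). Tap1 (-0.27 ± 0.11), Tap2 (-0.22 ± 0.10), Tapbp (-0.14 ± 0.10), Psmb10 (-0.05 ± 0.08), Psmb8 (0.06 ± 0.06) and Psmb9 (0.06 ± 0.08) did not pass either, and 5 of the 10 genes had an unadjusted p under 0.05, beside 16.6% of all genes. Without TMM factors the share of called genes that were higher fell from 45.3% to 24.7%. H2-D1 (-0.19) and Tap1 (-0.35) were then called lower, and Nlrc5 was no longer called. The group difference did not differ between the Nkg7 strata of Cd4 cells for any of the 10 genes, in a test that called 1.46% of 9851 genes; the difference of the differences was -0.07 ± 0.06 for H2-K1 and ran from -0.22 ± 0.14 for Tap2 to 0.35 ± 0.23 for Nlrc5. The whole Cd4 class, with 0.36 ± 0.03 for H2-K1, included 2 strata in which that difference was 0.05 and -0.05, in shares that differed between the groups. These values come from separate fits, each with its own TMM factors. The part of the shares in the class difference was not tested. Cells with 1 or 2 Nkg7 UMIs, 6.80% and 6.98% against 15.6% and 18.5% of Cd4 cells, were in neither stratum.

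In Cd8 cells most cells of both groups were Nkg7-positive, and there 7 of the 10 genes were higher in the sh-B7-H3 (1) libraries, beside 21.6% of 11292 genes. H2-K1 stood at 2142 and 2180.2 CPM against 2868 and 2746 CPM (0.38 ± 0.03, adjusted p = 3.1e-08), B2m at 2449 and 2469 against 3101 and 3013 CPM (0.31 ± 0.03), and Nlrc5 at 37.4 and 35.7 against 58.4 and 55.7 CPM (0.64 ± 0.06). H2-D1 (0.29 ± 0.04), Psmb9 (0.28 ± 0.04), Psmb8 (0.24 ± 0.03) and Tap1 (0.16 ± 0.05) rose too, while Tap2 (0.11 ± 0.05), Psmb10 (-0.04 ± 0.04) and Tapbp (-0.08 ± 0.04) did not pass. The groups did not overlap for any of the 7, and the share of all genes without overlap was not counted. When TMM factors were left out, the median of all genes moved by 0.114 and the share of called genes that were higher rose from 50.9% to 68.9%. Over all Cd8 cells Nkg7 stood at 929 and 1040 against 2949 and 2663 CPM before TMM scaling. Its level within the Nkg7-positive cells was not compared, so these cells need not be alike in Nkg7 between the groups. Nkg7-negative Cd8 cells were rare, with 144, 89, 17 and 29 cells, and none of the 10 genes was called there, beside 0.624% of 4330 genes; 2 of the 10, Tap1 (-0.80 ± 0.39) and Psmb10 (0.41 ± 0.20), had an unadjusted p under 0.05 by edgeR, beside 8.24% of all genes, and they went opposite ways. The other 8 ran from -0.34 ± 0.36 for Tap2 to 0.72 ± 0.45 for Nlrc5, and H2-K1 was at 1794 and 1813 against 1596 and 1955 CPM, overlapping. Among their called genes 77.8% were higher, and 38.9% without TMM factors, which moved the median by -0.136.

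The group difference was larger in Nkg7-positive than in Nkg7-negative Cd8 cells for H2-D1 (0.58 ± 0.14, adjusted p = 0.012), B2m (0.55 ± 0.13, adjusted p = 0.013) and H2-K1 (0.55 ± 0.14, adjusted p = 0.015), beside 0.670% of 10151 genes called and a median of 0.18 over all genes. The other 7 did not pass, with estimates from -0.29 ± 0.20 for Psmb10 to 1.12 ± 0.39 for Tap1. None of the 3 calls held without sh-NC library 1, without sh-NC library 2 or without sh-B7-H3 (1) library 1, where the differences were 0.37, 0.42 and 0.34. The fits without sh-NC library 1 or 2 left 1 control library and called fewer of all genes.

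**Figure D5:**
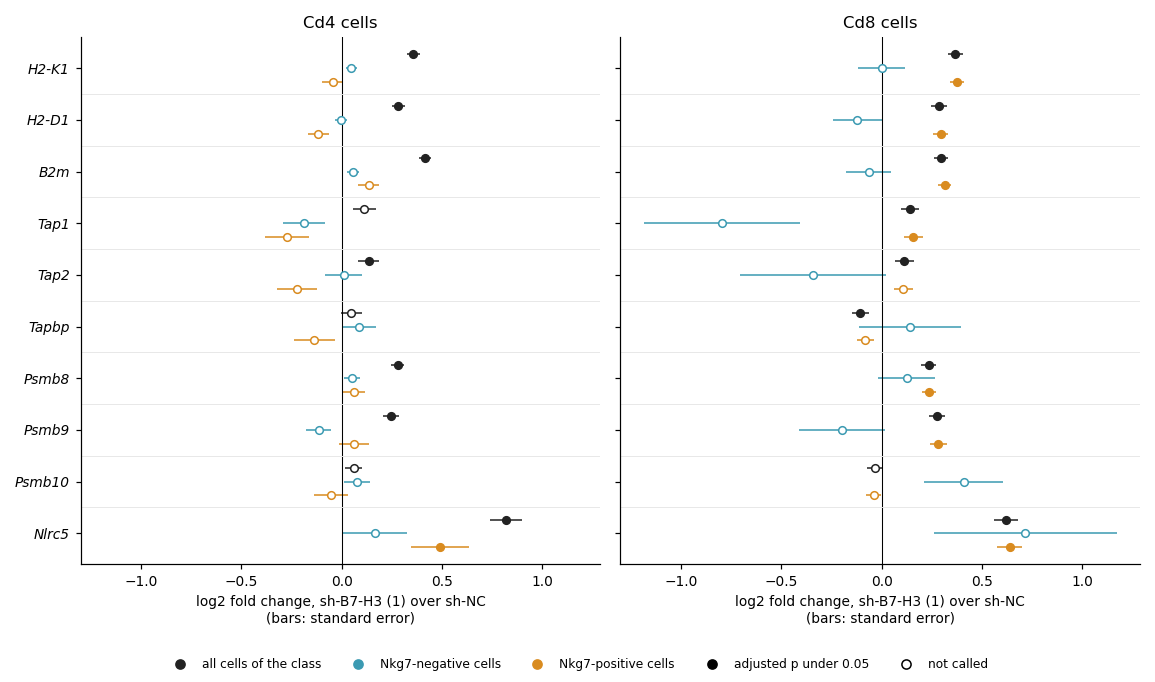
Log2 fold change of each gene, sh-B7-H3 (1) over sh-NC, in all cells of a class and in its Nkg7-negative and Nkg7-positive cells (bars: standard error; filled points passed). In Cd4 cells H2-K1 stands at 0.36 in the whole class and at 0.05 and -0.05 in the strata. In Cd8 cells it stands at 0.37 in the class and 0.38 in the Nkg7-positive cells, which were not matched for Nkg7 level between the groups.

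Some pathway genes were called lower in the knockdown libraries within both Cd4 strata, beside 4.39% and 5.87% of all genes called in them. These were Psme1 (-0.23 ± 0.05 in Nkg7-negative and -0.27 ± 0.07 in Nkg7-positive cells), Psme2 (-0.33 ± 0.06 and -0.42 ± 0.08) and Irf1 (-0.60 ± 0.10 and -0.44 ± 0.11). Of the loading and trimming genes Pdia3 (-0.43 ± 0.07 and -0.39 ± 0.08) and Hspa5 (-0.28 ± 0.06 and -0.29 ± 0.08) were also lower in both. By list, 2 of 6 loading genes, 2 of 7 proteasome genes and 2 of 11 regulators were lower in Nkg7-negative cells and 2 of 6, 2 of 7 and 1 of 12 in Nkg7-positive cells, with none higher. H2-Q7 was higher in the Nkg7-negative cells (0.43 ± 0.04) and did not pass in the Nkg7-positive cells (0.13 ± 0.06). Between the strata, 7 of 10 heavy chain genes tested were higher in Nkg7-positive Cd4 cells and 1 was lower (median 0.75), with 4 and 1 of the 6 loading genes (median 0.41), 2 and 1 of the 7 proteasome genes (median 0.10) and 5 and 4 of the 12 regulators (median -0.01), beside 29.4% of all genes higher. H2-Q6 (2.20 ± 0.07), H2-M3 (1.26 ± 0.10) and H2-Q7 (1.07 ± 0.04) were among the higher genes, as was Irf8 (4.11 ± 0.13), and Nfya (-0.82 ± 0.18) and Erap1 (-0.31 ± 0.12) were among the lower.

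Cells responding to interferon were called from 3 or more UMIs of Isg15, Ifit1, Ifit3, Rsad2 and Usp18 together, and compared with cells that had none. They were 10.3% and 9.42% of Cd4 cells in the sh-NC libraries and 3.20% and 4.13% in the sh-B7-H3 (1) libraries, and 13.14% and 13.998% against 10.96% and 10.49% of Cd8 cells. At 1000 UMIs per cell the shares of Cd4 cells with any such UMI were 9.07% and 9.56% against 4.80% and 5.64%. All 10 genes were higher in responding Cd8 cells, beside 4.30% of 9983 genes higher, and 6 of the 10 in responding Cd4 cells, beside 1.86% of 9853 genes. Tapbp led in both, at 182, 169, 193 and 219 CPM in responding and 117, 117, 108 and 104 CPM in other Cd8 cells (0.78 ± 0.06, adjusted p = 7.6e-25), and by 0.59 ± 0.11 in Cd4 cells. Psmb10 (0.65 ± 0.05), Tap1 (0.62 ± 0.06), Psmb9 (0.51 ± 0.05), Psmb8 (0.50 ± 0.03) and Nlrc5 (0.49 ± 0.09) followed in Cd8 cells, then Tap2 (0.33 ± 0.07) and B2m (0.30 ± 0.03), and the heavy chains were last (H2-K1 0.25 ± 0.03, H2-D1 0.23 ± 0.03). In Cd4 cells the calls were Tapbp, Psmb9 (0.45 ± 0.08), Tap1 (0.44 ± 0.13), Psmb8 (0.36 ± 0.06), Psmb10 (0.35 ± 0.09) and B2m (0.19 ± 0.05), while Nlrc5 (0.16 ± 0.18), H2-D1 (0.12 ± 0.05), H2-K1 (0.07 ± 0.05, adjusted p = 0.73) and Tap2 (0.05 ± 0.12) did not pass. Leaving out 1 library left 3 or 4 of the 6 calls in Cd4 cells, and Tap1 was lost whichever of the 4 was left out.

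Tapbp, which differed most by interferon response in both classes, did not pass between the Nkg7 strata of either (0.10 ± 0.07 in Cd4 and -0.21 ± 0.13 in Cd8 cells), and it was not called higher between the groups in any of the 4 classes. The group difference did not differ between responding and other cells for any of the 10 genes, in tests that called 0.345% of genes in Cd4 and 0.641% in Cd8 cells; the estimates ran from -0.80 ± 0.35 for Nlrc5 to -0.03 ± 0.10 for H2-D1 in Cd4 cells and from -0.05 ± 0.17 for Nlrc5 to 0.39 ± 0.11 for Tapbp in Cd8 cells. In cells with no such UMI, 8 of the 10 genes were called between the groups in Cd4 cells, where Tap1 now passed (0.24), beside 40.3% of 10634 genes, and 9 in Cd8 cells, beside 38.2% of 10766 genes; this alternative was added after the data were seen.

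Values of free RNA and of other cell types moved with the groups. In barcodes with 1 to 50 RNA UMIs, taken as RNA outside cells (1026745 to 1590011 barcodes per library), H2-K1 was at 2244 and 2202 CPM in the sh-NC libraries and 2766 and 2752 CPM in the sh-B7-H3 (1) libraries, B2m at 1882 and 1912 against 2453 and 2432 CPM, and Nlrc5 at 46.8 and 55.5 against 72.0 and 80.1 CPM. Over the 10 genes the log2 ratio in free RNA ran from 0.01 for Psmb10 to 0.57 for Nlrc5, beside a median of 0.142 over 4374 genes. In Cd4 cells macrophage markers summed to 10.2 and 9.16 CPM against 50.9 and 49.1 CPM and NK cell markers (3 genes) to 15.9 and 16.5 against 98.8 and 84.9 CPM, with the defining NK gene Ncr1 at 0. B cell markers (5 genes) summed to 201 and 188 against 108 and 96.5 CPM. Markers of regulatory T cells summed to 166 and 165 against 386 and 395 CPM in Cd4 cells and to 90.7 and 96.7 against 197 and 188 CPM in Cd8 cells, with Foxp3 at 0 by the way the classes were called. In Cd8 cells the sums were 10.7 and 10.3 against 41.0 and 47.3 CPM for macrophages, 28.0 and 30.0 against 83.3 and 70.6 CPM for NK cells with Ncr1 at 0, and 213 and 205 against 94.5 and 105 CPM for B cells. Markers of dendritic cells (5), neutrophils (3) and tumor or stroma (6) stayed at or below 41.2 CPM in the T cell classes and 122 CPM in the C1q class, and red cell markers (4) stood at 42.9 CPM in Cd4 cells of sh-NC library 1 and at or below 11.4 CPM elsewhere. The part of these cells and of free RNA in the class I values was not tested.

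On the protein side, the antibody panel held 1 tag for a form of a member's product and 1 tag for the class I-like molecule CD1d. The first binds H-2Kb, the H2-K1 product, only when it carries the peptide SIINFEKL. The study names no source of this peptide in these tumors or mice, so the tag is not read as a level of H-2Kb. The H-2Kb tag stood at 2257 and 2235 against 2622 and 2544 CPM of all tags in Cd4 cells (log2 0.20, adjusted p = 0.011, beside 54.8% of 197 tags called in either direction). In Cd8 cells it stood at 2201 and 3157 against 2387 and 2342 CPM, with the control libraries apart (-0.18, adjusted p = 0.46, beside 61.9%). It rose in Foxp3 cells (0.19, adjusted p = 0.034, beside 39.1%) and in C1q cells (0.36, adjusted p = 0.032, beside 33.0%). The 9 isotype control tags, which should bind nothing, had medians of 0.13, 0.12, 0.15 and 0.05 in the Cd4, Cd8, Foxp3 and C1q classes and ranged from -0.29 to 0.62, so the H-2Kb values lay inside the range of the controls. The call in Cd4 cells was lost without either sh-B7-H3 (1) library, that in Foxp3 cells without sh-NC library 1 or 2 or sh-B7-H3 (1) library 2, and that in C1q cells without sh-NC library 2 or either sh-B7-H3 (1) library. The CD1d tag fell in all 4 classes, by 1.33, 1.13, 1.21 and 1.28 on the log2 scale in Cd4, Cd8, Foxp3 and C1q cells. Its log2 fold change lay below that of every isotype tag. In Cd4 cells the CD1d tag stood at 6349 and 6823 against 2600 and 2638 CPM. RNA of Cd1d1, which is in the heavy chain list, was not called in any of the 4 classes.

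Over the 12 sums of Cd4, Cd8 and Foxp3 cells, the 10 genes did not all vary together. The correlation of a gene with the mean of the other 9 was highest for B2m (Pearson r = 0.933), Psmb9 (0.928) and Psmb8 (0.905), and lowest for Tapbp (0.467) and Psmb10 (0.341). Among 2896 other genes with at least 20 CPM in every class, those most like the mean of the 10 were Selplg (r = 0.966), Lpxn (0.963), H2-Q7 (0.963), Cd48 (0.961) and Ndufa13 (0.954). Selplg, which encodes the P-selectin ligand PSGL-1, rose from 214 and 212 to 266 and 266 CPM in Cd4 cells and from 307 and 312 to 411 and 409 CPM in Cd8 cells on the common scale. The sums share libraries and depth, so these correlations are descriptions with n = 12 and no test.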

How the data were processed

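CITE-seq libraries of sorted CD3+ tumor cells were analysed, 2 per group. The authors deposited gene-by-cell matrices of UMI counts, the number of distinct RNA or tag molecules per feature and cell, made with Cell Ranger (filtered file header 6.1.1) on mm10, and the submitters' processing notes also name Seurat 4.0.0. The counts are not normalized. Groups were taken from the sample labels.

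Cells were kept when they had 200 to 3000 genes with a UMI and no more than 5% of UMIs from mitochondrial genes, and cells scored as doublets against simulated doublets were removed. C1q cells had at least 10 UMIs of C1qa, C1qb and C1qc and at most 1 Cd3 UMI. Foxp3 cells had at least 1 Foxp3 UMI and at most 1 Cd8 UMI. Cd8 cells had at least 3 Cd8a and Cd8b1 UMIs and no Cd4 or Foxp3 UMI. Cd4 cells had at least 1 Cd4 UMI, at most 1 Cd8 UMI and no Foxp3 UMI. The T cell classes had at most 2 C1q UMIs. UMIs were summed per class and library and fitted over all genes with edgeR 4.0.16 (quasi-likelihood test, TMM, low counts filtered by filterByExpr), with Benjamini-Hochberg adjustment over all genes tested and calls at an adjusted p of 0.05. Classes were compared in 1 fit of all 16 sums, which share the libraries. DESeq2 1.42.0 was an alternative, as were no TMM factors, no filter, a replicate block, leaving out each library, other cell limits and cells thinned to 1000 UMIs. The code was tested on simulated data. Python 3.11.15, NumPy 2.4.6, SciPy 1.17.1, pandas 2.3.3 and R 4.3.3 were used.

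The 10 genes, the 4 lists of 40 other pathway genes and the marker lists were chosen with earlier results of these data known. All 10 genes are covered in every comparison, by name or, in the tests of a difference of differences and in Nkg7-negative cells, by their range, except that no estimate of Tap2 and Nlrc5 is given for C1q cells. List genes that averaged 20 CPM or more in any class are named where they were called in Cd4 or Cd8 cells, except 1 regulator that counts in its list and is not reported here. The 5 genes most like the 10 were taken by Pearson correlation over 12 sums. Overlap of libraries is described for named genes only and has no background over all genes, so it adds no test to the calls. Intervals of shares are exact (Clopper-Pearson, 95%) and, like the limits of a count of 0, cover counting error only.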

Additional observations from a re-analysis of the deposited data

Results flagged for a closer look

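The group difference, sh-B7-H3 (1) over sh-NC, was larger in C1q cells than in Cd4 cells by 0.69 (log2) for H2-K1 and by 0.49 for H2-D1, by an interaction term over all 16 sums. The median of this term over all genes was 0.42. Neither gene was called without TMM factors, where H2-D1 turned to -0.017, nor without sh-NC library 2 (0.40 and 0.16), and H2-D1 was not called without sh-B7-H3 (1) library 1 (0.35). The C1q sums came from 26 to 103 cells per library. Within Cd8 cells, an interaction term gave a larger group difference in Nkg7-positive than in Nkg7-negative cells for H2-K1 (0.55), H2-D1 (0.58) and B2m (0.55). The median over all genes was 0.18, and none of the 3 calls held without sh-NC library 1, without sh-NC library 2 or without sh-B7-H3 (1) library 1. The Nkg7-negative sums of the sh-B7-H3 (1) libraries came from 17 and 29 cells. The cause of these differences was not tested.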

How the results depend on the processing

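The values here are numbers of the 10 genes called, unless given as log2. The number of all genes called changed with the setting as well and is not repeated here. With a log2 fold change of at least 1 also required, the number was 0 between the groups in Cd4, Cd8 and Foxp3 cells and in Nkg7-positive Cd4 and Cd8 cells, for Cd8 and Foxp3 against Cd4 cells, for the C1q against Cd4 interaction and for the Nkg7 and interferon strata of both classes, and 1 for C1q against Cd4 cells (Tap2, from which no result is read there). Between the groups in Foxp3 cells it was 0 without the low-count filter, 3 with a mitochondrial limit of 10%, 1 with stricter class calls, 1 at 1000 UMIs per cell and 0 to 2 leaving out 1 library. In C1q cells it was 1 without the filter, 4 with no upper gene limit, 1 at 1000 UMIs, 1 with no Cd3 limit and 0 to 3 leaving out 1 library. For Cd8 against Cd4 cells DESeq2 gave 6, and for C1q against Cd4 cells it was 5, Tap2 included, 3 at 1000 UMIs and 3 to 6 leaving out 1 library. For the interactions it was 1 (Cd8) and 2 (Foxp3) without TMM factors, and for C1q 1 with DESeq2, 0 without TMM factors, 6 with no upper gene limit, 1 with stricter calls, 0 with no Cd3 limit and 0 to 3 leaving out 1 library. Leaving out 1 library gave 0 to 5 for the Nkg7 strata of Cd8 cells, 3 to 4 for the interferon strata of Cd4 cells and 0 to 1 between the groups in Nkg7-positive Cd4 cells. Without TMM factors it was 2 in Nkg7-negative and 2 in Nkg7-positive Cd4 cells. Leaving out 1 library gave 6 to 7 in both Cd4 and Cd8 cells.

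Among called values, directions turned for H2-D1 (-0.00805) and Tap2 (-0.00315) in Cd8 against Cd4 cells without TMM factors. They also turned for H2-D1 in C1q against Cd4 cells at 1000 UMIs (-0.109) and in the C1q interaction without TMM factors (-0.017). The log2 ratio of Psmb8 to Psmb5 in Cd4 cells was 0.116 and that of Psmb10 to Psmb7 -0.0603 without doublet removal, and that of Psmb9 to Psmb6 in C1q cells 0.530 with no upper gene limit. Of the single-gene values under all alternatives, 1694 were counted as unchanged, 147 lost a call, 47 gained one and 4 called values turned. A change of sign in a value that was not called was not counted as a turn. The cause of these shifts was not tested.

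Libraries of both groups share replicate numbers, which gave no sign of pairing: deviations of same-numbered libraries correlated at -0.03 to 0.01 over genes. With a replicate block 2 genes were called in Foxp3 cells and 3 in Nkg7-positive Cd4 cells. The settings on cells with no interferon-response UMI, on C1q cells with no Cd3 limit, on the tags and on the Nkg7 interactions were chosen after seeing the data. With 2 libraries per group and 26 to 103 C1q cells per library, a missing call in C1q cells does not show that the groups were alike. H2-K1 was not called there at a log2 fold change of 0.77 ± 0.17.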
